A study of Sus scrofa with 19 samples.

Results

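The natriuretic peptide system was followed in myocardial samples of 19 pigs, described as LV tissue, through 9 listed genes: the peptide genes NPPA, NPPB and NPPC, the receptor genes NPR1, NPR2 and NPR3, the processing proteases CORIN and FURIN, and MME, the gene of neprilysin. Members were found by symbol in the deposited expression table and by Ensembl identifier in the count files, which gave 8 of the 9 genes among 25879 counted genes. NPPA is not analysed here, and NPPC had too few counts to pass the filter on low counts, so that 7 members were tested among 13552 genes. The pigs were female large whites according to the sample descriptions, with 1 library per pig. The study compared models of myocardial fibrosis by bulk RNA-seq.

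The DOX group (n = 5) received doxorubicin, and the MYO group (n = 5) received Myocet, doxorubicin in liposomes, both at 60 mg/m2 in 3 cycles with tissue taken at 3 months because the animals were ill. In RemoLV (n = 3) the mid left anterior descending artery was occluded by a balloon for 90 min and reperfused, and tissue came at 6 months from the posterior wall, which had not been ischaemic. In Hyper (n = 3) a stent of 9 mm narrowed the aortic isthmus, and Hyper and Control tissue was taken at 6 months. Control pigs (n = 3) are described as sham-operated in the sample descriptions and as untreated in the methods of the study. Tissue of DOX, MYO, Hyper and Control came from the anterior wall. The DOX and MYO data came from an earlier study. In their comparisons with Hyper or Control, the treatment, the shorter follow-up, the series of libraries and the presence of Y-linked reads described below cannot be told apart.

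Atrial and brain natriuretic peptides (ANP and BNP, from NPPA and NPPB) are cardiac hormones released when the heart wall is stretched, and they lower blood pressure and volume. CNP, from NPPC, acts mainly on vessels and bone. ANP and BNP act through the guanylyl cyclase receptor NPR1 and CNP through NPR2, both of which make cGMP, whereas NPR3 removes the peptides from the circulation. Corin and furin cut the peptide precursors into active hormones, and neprilysin, the target of sacubitril, breaks the hormones down. NPPB is a classical transcript of the stressed ventricle.

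Library totals lay between 9527710 and 20370209 counts on genes, with a median of 14527230. Levels are given in CPM, gene counts scaled to a common library total after TMM normalisation. Sample names conflict between the count files and the expression table. When the table's 19 columns were matched to the count files, each was a monotone function of exactly 1 of them, and 8 of these files carried the name of another group. The columns named Control match the files labelled RemoLV and the reverse, and 1 DOX and 1 MYO library are exchanged. File labels are used below, and values by table names are given for results that they alter. The libraries labelled RemoLV stood apart in their markers. MYL4, the atrial essential myosin light chain, was at 6030 to 8130 CPM in these 3 libraries and at no more than 21.9 CPM in the other 16, and MYL2, the ventricular regulatory light chain, was at 18.6 to 115 CPM against 8980 to 18100 CPM. All 8 tested atrial markers were higher and all 6 ventricular markers lower in RemoLV than in Control, and the summed level of the 10 matched atrial markers was 9740 to 13100 CPM against 173 to 2480 CPM in the other libraries, with BMP10 at 0 in every library of DOX, Hyper and Control. These libraries therefore go against the label of left ventricle in their markers, and every result that rests on them is a result on the libraries labelled RemoLV. By table names they are the Control columns, so that each comparison with Control by those names sets the other groups against them. DDX3Y, a gene of the Y chromosome, was at 96.1 to 177 CPM in each of the 10 libraries of DOX and MYO and had at most 2 counts in each of the other 9, so that the DOX and MYO libraries go against the description of all pigs as female.

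The members moved in different directions. By file labels NPPB was higher in DOX, MYO and the libraries labelled RemoLV than in Hyper and Control, by 17.6-fold in DOX, 43.2-fold in MYO and 21.9-fold in RemoLV against Control. Without MYO replicate 2 its log2 fold change in MYO fell from 5.43 to 4.18. NPR2 was higher in the same groups by 1.41-fold to 1.52-fold. By table names neither gene passed the test against Control in DOX or MYO, and both were lower than Control in RemoLV. NPR3 and MME were lower, and FURIN higher, in the libraries labelled RemoLV than in Control, with these directions turned by table names. CORIN passed the test in no comparison. A member was called at an adjusted p of at most 0.05. Against Control, 3 of 7 tested members were called in DOX, where 42.1% of all 13552 genes were called, 2 of 7 in MYO (42.4% of all genes) and 5 of 7 in RemoLV (47.2%). No member was called between Hyper and Control, and no gene of the whole table was (0%), although 2418 genes had an unadjusted p below 0.05 and DESeq2 called 311 genes but 0 of the 7 members. DOX and MYO together differed from Hyper in 4 of 7 members (32.6% of all genes), and RemoLV from Hyper in 5 of 7 (35.6%). These shares are read against backgrounds in which 32.6% to 47.2% of all genes were called.

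NPPB encodes the BNP precursor and is on the minus strand of chr6:71930374-71931843 in Sscrofa11.1 (RefSeq), 9028 bases from NPPA. Its promoter is shown because NPPB separated the groups more widely than any other member. It is the 250 bases before the annotated start, chr6:71931844-71932093 on the minus strand, and capitals mark matches to the GATA site AGATAA and to the M-CAT element CATTCC.
NPPB: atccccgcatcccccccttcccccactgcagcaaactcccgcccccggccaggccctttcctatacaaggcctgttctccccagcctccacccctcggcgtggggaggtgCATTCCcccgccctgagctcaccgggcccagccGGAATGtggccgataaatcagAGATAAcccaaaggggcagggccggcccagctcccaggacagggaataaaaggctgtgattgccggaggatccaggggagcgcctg

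Both strands were searched. The GATA site begins at base -86 from the start, and M-CAT matches begin at -140 and, on the opposite strand as GGAATG, at -107. Of 19544 pig promoters of the same length, 8.09% hold the GATA site and 10.3% the M-CAT element. No AP-1, NKX, T-box, CArG or TATA match was found in this window under the letters searched. A match is a description of letters and not a measured binding site.

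In DOX, NPPB was at 11.5, 7.55, 34.2, 29.3 and 41.8 CPM. In MYO it was at 37.8, 202, 22.8, 28.3 and 14.4 CPM. The 3 libraries labelled RemoLV were at 19.6, 47.0 and 26.03 CPM. All 13 libraries lay above every Hyper and Control library. Hyper was at 0.618, 2.56 and 1.81 CPM, and Control at 2.99, 0.534 and 0.846 CPM, from 9 to 40 raw counts per library. The spread within groups was wide, with 24.9 ± 14.8 CPM in DOX (SD, n = 5), 61.0 ± 79.2 in MYO (n = 5), 30.9 ± 14.3 in RemoLV, 1.66 ± 0.979 in Hyper and 1.46 ± 1.33 in Control (n = 3 each). MYO replicate 2 set the MYO mean, and the MYO median was 28.3 CPM.

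**Figure D1:**
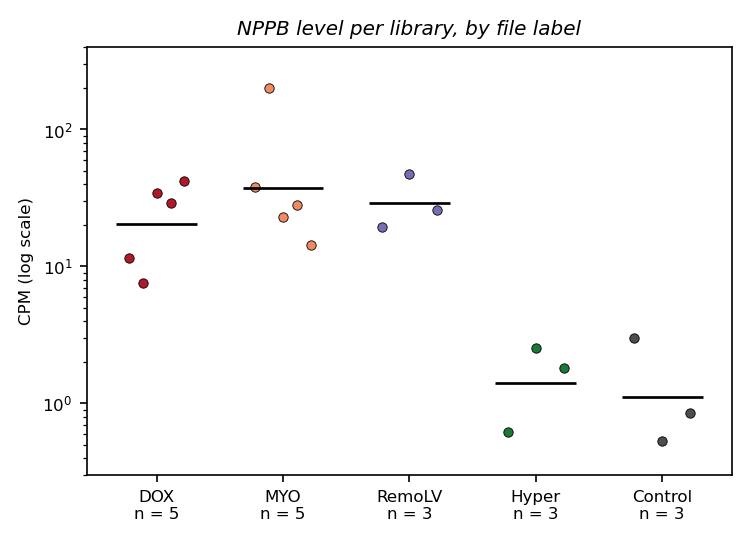
NPPB level of each of the 19 libraries in CPM on a log axis, by file label, with a bar at the geometric mean of each group. The 13 DOX, MYO and RemoLV libraries are at 7.55 to 202 CPM and the 6 Hyper and Control libraries at 0.534 to 2.99 CPM.

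Against Control, the log2 fold change of NPPB was 4.13 in DOX (SE 0.98, adjusted p = 0.00281), 5.43 in MYO (SE 1.01, adjusted p = 0.000446) and 4.45 in RemoLV (SE 1.02, adjusted p = 0.00172). Without Control replicate 1 these values were 5.17, 6.47 and 5.48, and without MYO replicate 2 the MYO value was 4.18, with the calls kept. The log2 fold change of Hyper against Control was 0.23 (SE 1.18, adjusted p = 0.94). DOX and MYO together exceeded Hyper by 4.56 (SE 0.95, adjusted p = 0.00144), with all 10 libraries above all 3 Hyper libraries (3.94 without MYO replicate 2), and RemoLV exceeded Hyper by 4.22 (SE 1.00, adjusted p = 0.00316). By table names DOX and MYO exceeded Hyper by 4.54 (adjusted p = 0.00131), since the exchange within the 10 cardiotoxic libraries does not change their pool. RemoLV against Hyper gave -0.23 by table names (adjusted p = 0.94). The columns named Control were at 19.6 to 47.0 CPM, and against them NPPB differed by -0.36 in DOX (adjusted p = 0.734) and 1.00 in MYO (adjusted p = 0.323), and fell by 4.22 in Hyper (adjusted p = 0.00287) and by 4.45 in RemoLV (adjusted p = 0.00155).

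In bulk tissue, fewer cells of a type and less RNA per cell cannot be told apart. The fibroblast marker sum was 3880 to 5840 CPM in DOX and MYO and 8810 to 10100 CPM in RemoLV against 1330 to 3260 CPM in Hyper and Control, and the atrial marker sum was 857 to 2480 CPM in DOX and MYO against 173 to 1330 CPM in Hyper and Control. In DOX and MYO against Hyper, 2 of 6 fibroblast markers and 2 of 8 atrial markers were called, all of them higher, as were 2 of 5 endothelial, 1 of 6 ventricular and 1 of 4 smooth muscle markers, whereas 1 endothelial and 2 of 5 pan-cardiomyocyte markers were lower (15.8% of all genes were higher and 16.9% lower). The part of these cells in the NPPB difference was not tested.

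NPPC, the gene of CNP, was near the limit of detection. Raw counts were 2 to 5 per library in DOX, 3 to 5 in MYO, 2 to 4 in Hyper and 1 to 4 in Control. The libraries labelled RemoLV had 35, 6 and 17 counts, with 58 counts in all against 8 in Control. In CPM, RemoLV replicate 2 at 0.338 lay within the range of MYO, which reached 0.353. In a fit without the filter, which covered 19296 genes, NPPC was 2.91 higher on the log2 scale in RemoLV than in Control (SE 0.64, adjusted p = 0.00122), and by table names 2.91 lower (log2 fold change -2.91, adjusted p = 0.00108). By table names NPPC was also lower than Control in DOX (-2.61, adjusted p = 0.000971), MYO (-2.13, adjusted p = 0.0044) and Hyper (-2.85, adjusted p = 0.00185). In the same fit DOX and MYO pooled against Hyper gave 0.49 (SE 0.60, adjusted p = 0.62), a difference that was not detectable at this depth.

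Among the receptors, NPR1 was lowest in DOX. NPR1 is the receptor of ANP and BNP and lies on chr4:95957220-95974253. In DOX it was at 37.8, 52.6, 32.4, 39.2 and 40.6 CPM. In MYO the values were 74.5, 41.8, 54.2, 54.6 and 44.6 CPM. Hyper libraries were at 63.3, 71.4 and 87.8 CPM, above all 5 DOX libraries and above 4 of 5 MYO libraries. RemoLV at 65.7, 63.7 and 50.4 CPM and Control at 60.3, 59.0 and 49.9 CPM overlapped with each other and with MYO.

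NPR1 fell by 0.67 on the log2 scale in DOX and MYO together against Hyper (SE 0.15, adjusted p = 0.00296), and the table names gave -0.65 (adjusted p = 0.0101). The pan-cardiomyocyte and endothelial markers given above differ in the same comparison, and their part in the NPR1 value was not tested. In this comparison scaling by total counts took the value to -0.41 (adjusted p = 0.0998). Against Control it fell by 0.48 in DOX (SE 0.17, adjusted p = 0.0352), a call lost when any of DOX replicates 1, 3, 4 and 5 or Control replicates 1 and 2 was left out, with adjusted p from 0.0513 to 0.111. It was also lost with total counts (-0.0584, adjusted p = 0.84), with the replicate block (-0.43, adjusted p = 0.106) and by table names (-0.34, adjusted p = 0.221). MYO gave -0.06 (adjusted p = 0.797), RemoLV 0.09 (adjusted p = 0.733) and Hyper 0.40 (adjusted p = 0.296). In DOX against Control, 4 of 5 pan-cardiomyocyte and 2 of 5 endothelial markers were lower and 1 of each was higher (42.1% of all genes were called). Their part in the NPR1 value was not tested.

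NPR2, the CNP receptor on chr1:236508994-236529172, spanned 32.2 to 57.2 CPM over the 19 libraries. DOX values were 52.6, 45.4, 48.1, 43.2 and 48.5 CPM. MYO values were 46.7, 52.2, 47.5, 48.9 and 49.5 CPM. RemoLV values were 46.0, 50.2 and 57.2 CPM. Every one of these 13 libraries was above Hyper, at 34.8, 42.6 and 40.6 CPM, and above Control, at 32.2, 34.3 and 34.6 CPM.

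NPR2 rose against Control by 0.50 in DOX (SE 0.09, adjusted p = 0.00053), by 0.54 in MYO (SE 0.09, adjusted p = 0.000272) and by 0.60 in RemoLV (SE 0.10, adjusted p = 0.000161), all on the log2 scale. The difference of DOX and MYO from Hyper was 0.30 (SE 0.09, adjusted p = 0.0129; 0.21 with adjusted p = 0.112 without Hyper replicate 1). Hyper against Control gave 0.22 (adjusted p = 0.277). By table names, DOX and MYO differed from Control by -0.12 and -0.05 (adjusted p = 0.36 and 0.708), and Hyper was 1.3-fold lower than Control (adjusted p = 0.00769, and 0.0549 without the library named Control 3). The fibroblast marker sum given above separated the same 13 libraries from the same 6, and its part in the NPR2 difference was not tested.

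NPR3, the clearance receptor on chr16:18841540-18929813, was low in the libraries labelled RemoLV, at 21.0, 25.8 and 8.38 CPM. None of the other 16 libraries was as low. DOX was at 67.4, 53.2, 44.7, 64.2 and 79.7 CPM and MYO at 31.5, 57.6, 82.4, 47.0 and 28.3 CPM. Hyper at 36.8, 57.6 and 39.1 CPM and Control at 76.7, 35.2 and 70.0 CPM lay within the range of DOX and MYO.

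NPR3 fell by 1.71 on the log2 scale in RemoLV against Control (SE 0.41, adjusted p = 0.00225) and by 1.26 against Hyper (SE 0.40, adjusted p = 0.0208). By table names RemoLV against Hyper gave 0.45 (adjusted p = 0.571). The call against Hyper was also lost with total counts (-0.92, adjusted p = 0.0504), without RemoLV replicate 3 (-0.93, adjusted p = 0.0945) and without Hyper replicate 2 (-1.04, adjusted p = 0.0855). DOX and MYO against Hyper gave 0.31 (SE 0.32, adjusted p = 0.482). By table names NPR3 was higher in each group than in Control, there the libraries with atrial markers, by 1.50 in DOX (adjusted p = 0.00698), 1.67 in MYO (adjusted p = 0.00338), 1.71 in RemoLV (adjusted p = 0.00259) and 1.26 in Hyper (adjusted p = 0.0231, and 0.103 without the library named Control 3). The pan-cardiomyocyte marker sum was 16900 to 18000 CPM in the libraries labelled RemoLV and 23000 to 35400 CPM in the others, and its part in the NPR3 difference was not tested.

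**Figure D2:**
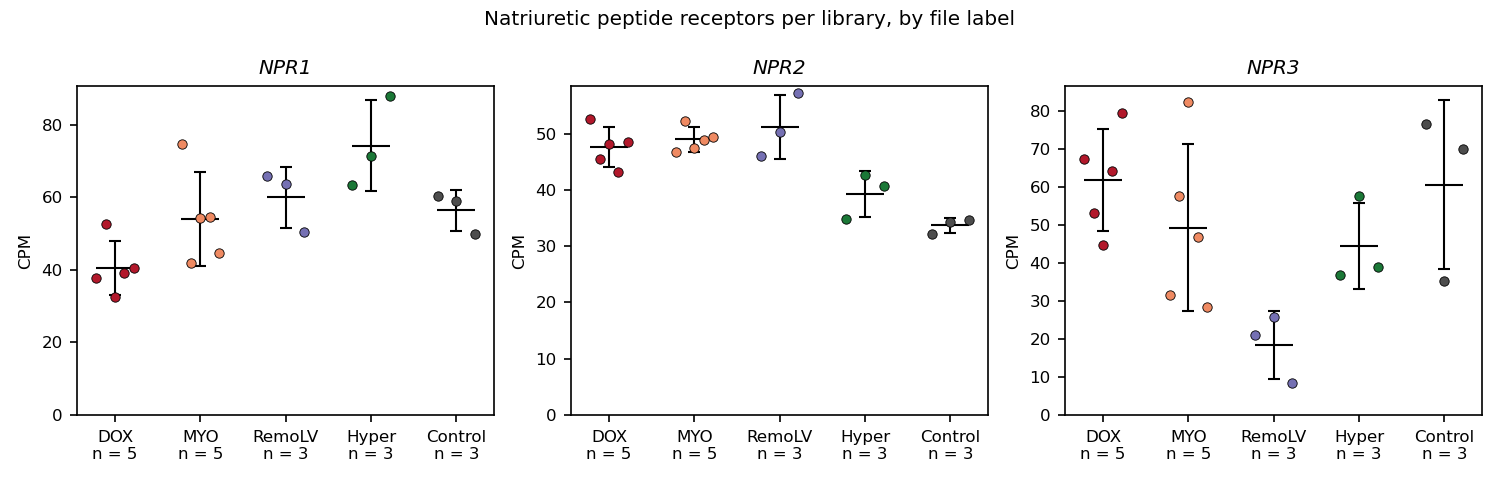
Levels of NPR1, NPR2 and NPR3 in each library in CPM, by file label, with the mean and SD of each group. NPR2 is at 43.2 to 57.2 CPM in DOX, MYO and RemoLV and at 32.2 to 42.6 CPM in Hyper and Control, and NPR3 is at 8.38 to 25.8 CPM in RemoLV.

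The balance of the clearance receptor to the signalling receptor was taken as the log2 ratio of NPR3 to NPR1 counts with a prior count of 0.5. It was 0.20 ± 0.71 (SD, n = 10) in DOX and MYO and -0.75 ± 0.43 (n = 3) in Hyper, and 8 of 10 libraries lay above every Hyper library. The difference of 0.95 did not pass a 2-sided exact permutation test with 286 possible assignments (p = 0.0594, with 0.0035 the smallest p possible). By file label, the group means were 0.60 in DOX, -0.21 in MYO, 0.03 in Control and -1.84 in RemoLV.

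CORIN, the membrane protease of the ANP precursor, is on chr8:37530812-37811226 and gave no call. DOX libraries were at 211, 175, 164, 105 and 183 CPM, and MYO libraries at 130.4, 128, 164, 170.4 and 149.8 CPM. RemoLV was at 132, 223 and 144 CPM, Hyper at 182, 180.4 and 111 CPM, and Control at 84.6, 207 and 61.0 CPM. Control replicate 2 was among the highest of the 19 libraries and the other 2 Control libraries were the lowest of all.

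CORIN log2 fold changes against Control were 0.51 in DOX (SE 0.31), 0.34 in MYO (SE 0.31), 0.50 in RemoLV (SE 0.34) and 0.43 in Hyper (SE 0.34), with adjusted p from 0.198 to 0.52. A single Control library decided these values. Without Control replicate 2, CORIN was called in DOX (1.20, adjusted p = 0.00175), MYO (1.03, adjusted p = 0.00462), RemoLV (1.19, adjusted p = 0.00209) and Hyper (1.12, adjusted p = 0.0125). DOX and MYO against Hyper gave 0.00 (SE 0.27, adjusted p = 0.991).

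FURIN, the proprotein convertase that cleaves the BNP precursor among many substrates, is on chr7:53455634-53472791. It was highest in the libraries labelled RemoLV, at 194, 168 and 181 CPM, above all other libraries. DOX was at 159, 123, 128, 79.9 and 67.9 CPM and MYO at 71.3, 82.3, 86.9, 76.3 and 115 CPM. Hyper at 51.7, 64.7 and 81.9 CPM and Control at 87.9, 66.8 and 71.6 CPM overlapped with both.

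FURIN rose by 1.26 on the log2 scale in RemoLV against Control (SE 0.26, adjusted p = 0.000629) and by 1.45 against Hyper (SE 0.26, adjusted p = 0.000282). DOX and MYO together exceeded Hyper by 0.57 (SE 0.21, adjusted p = 0.0461), a call at the threshold that was lost in 12 of the 19 fits that each left out 1 library, with adjusted p up to 0.249. It was also lost without the 3 libraries labelled RemoLV (adjusted p = 0.0626), without the filter (adjusted p = 0.0502) and when only the groups compared were fitted (adjusted p = 0.0707). DOX against Control gave 0.56 (SE 0.23, adjusted p = 0.0564) and MYO 0.20 (SE 0.23, adjusted p = 0.509). The DOX value was called by DESeq2 (0.54, adjusted p = 0.0467), with at least 10 counts in every library (adjusted p = 0.0482), with the replicate block (0.66, adjusted p = 0.0489) and with total counts (0.99, adjusted p = 0.00215), and the MYO value with total counts (0.64, adjusted p = 0.03). In the fits that each left out 1 library, the DOX adjusted p ranged from 0.0131 to 0.157. It was 0.121 when only the groups compared were fitted. By table names RemoLV against Hyper gave 0.19 (adjusted p = 0.715). By table names FURIN fell against Control, there the libraries with atrial markers, by 0.69 in DOX (adjusted p = 0.024), 1.08 in MYO (adjusted p = 0.00121), 1.26 in RemoLV (adjusted p = 0.000568) and 1.45 in Hyper (adjusted p = 0.00025). The DOX call was lost without the library named Control 1 (-0.63, adjusted p = 0.0816) or 3 (-0.69, adjusted p = 0.0641).

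MME, the gene of neprilysin, is on chr13:95018395-95122977. DOX libraries were at 7.49, 10.5, 10.4, 11.7 and 4.71 CPM. MYO libraries spread widely, at 21.5, 23.1, 11, 4.33 and 3.47 CPM. The libraries labelled RemoLV were at 6.54, 2.31 and 2.05 CPM, Hyper at 15.9, 19.2 and 18.2 CPM, and Control at 25.2, 8.91 and 21.6 CPM. RemoLV did not overlap with Hyper or Control, all DOX libraries were below all Hyper libraries, and MYO spanned both.

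MME fell by 2.34 on the log2 scale in RemoLV against Control (SE 0.63, adjusted p = 0.00517), a 5.06-fold lower level, and by 2.28 against Hyper (SE 0.63, adjusted p = 0.00841). Without RemoLV replicate 1 these values were -3.07 and -3.01, and by table names RemoLV against Hyper gave 0.0583 (adjusted p = 0.972). DOX against Control gave -1.04 (SE 0.51, adjusted p = 0.108) and MYO -0.54 (SE 0.51, adjusted p = 0.412). The DOX value was called without Control replicate 2 (-1.38, adjusted p = 0.0433) and when only the groups compared were fitted (adjusted p = 0.045). DOX and MYO against Hyper gave -0.73 (SE 0.45, adjusted p = 0.221). By table names MME was higher than Control, there the libraries with atrial markers, by 1.75 in DOX (adjusted p = 0.0319), 2.34 in RemoLV (adjusted p = 0.00563) and 2.28 in Hyper (adjusted p = 0.009), with 1.37 in MYO (adjusted p = 0.0896). The DOX call was lost without the library named Control 2 (1.49, adjusted p = 0.13) or 3 (adjusted p = 0.129), and without Control 1 DOX gave 2.48 and MYO was called (2.10, adjusted p = 0.0405).

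Neutrophils carry much neprilysin, and their 5 markers summed to only 1.47 to 6.26 CPM in RemoLV, 2.27 to 5.3 CPM in Hyper and 4.63 to 10.2 CPM in Control. Of the 5, 3 were lower in RemoLV than in Control (24% of all genes were lower), and none was at 0 throughout a group. The adipocyte sum was 15.1 to 90.4 CPM in RemoLV and 0.282 to 26.9 CPM elsewhere. The part of these cells in the MME and FURIN differences was not tested.

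**Figure D3:**
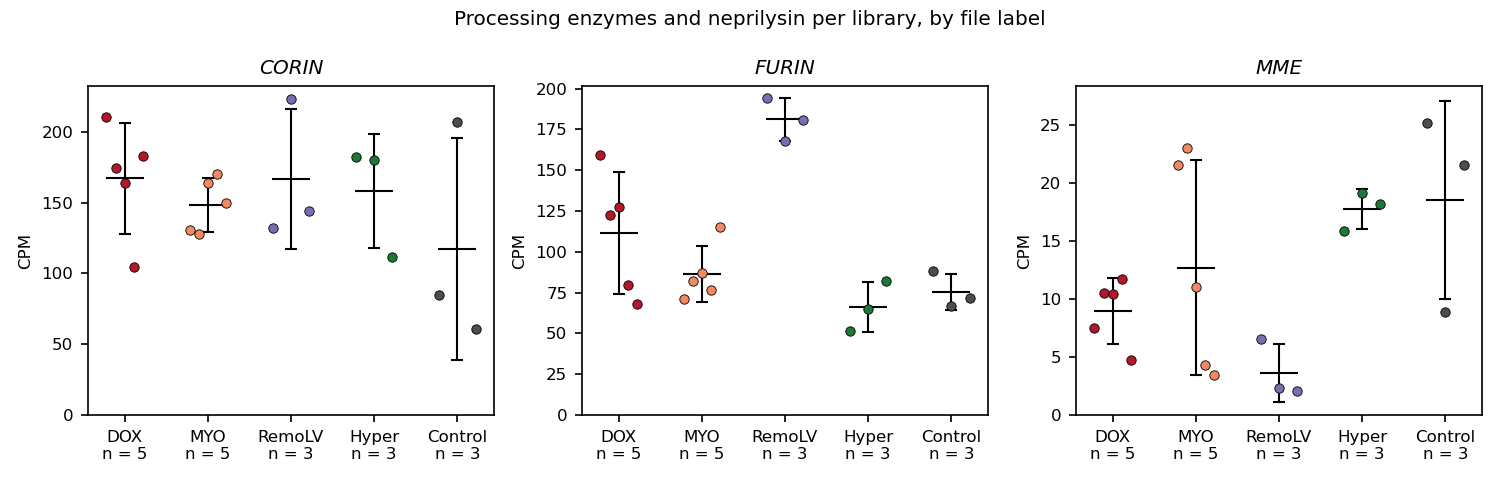
Levels of CORIN, FURIN and MME in each library in CPM, by file label, with the mean and SD of each group. FURIN is at 168 to 194 CPM and MME at 2.05 to 6.54 CPM in RemoLV, and Control replicate 2 lies apart from the other Control libraries in CORIN and MME.

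Doxorubicin and its liposomal form were compared at the same dose in all 7 tested members. None was called (0% of all genes; 960 genes had an unadjusted p below 0.05, and DESeq2 called 2 genes and 0 of the 7 members). The 95% interval of the log2 difference of DOX from MYO was -2.62 to 0.0188 for NPPB, -0.74 to -0.0922 for NPR1 (adjusted p = 0.692), -0.21 to 0.13 for NPR2 and -0.32 to 0.96 for NPR3. It was -0.38 to 0.73 for CORIN, -0.0435 to 0.78 for FURIN and -1.46 to 0.45 for MME. Each interval covers a single gene, and those of NPPB and MME were the widest. Without MYO replicate 2 the NPPB difference was -0.0539. By table names the NPR1 interval was -0.38 to 0.38 and the NPPB interval -2.67 to -0.0623 (adjusted p = 0.606).

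**Figure D4:**
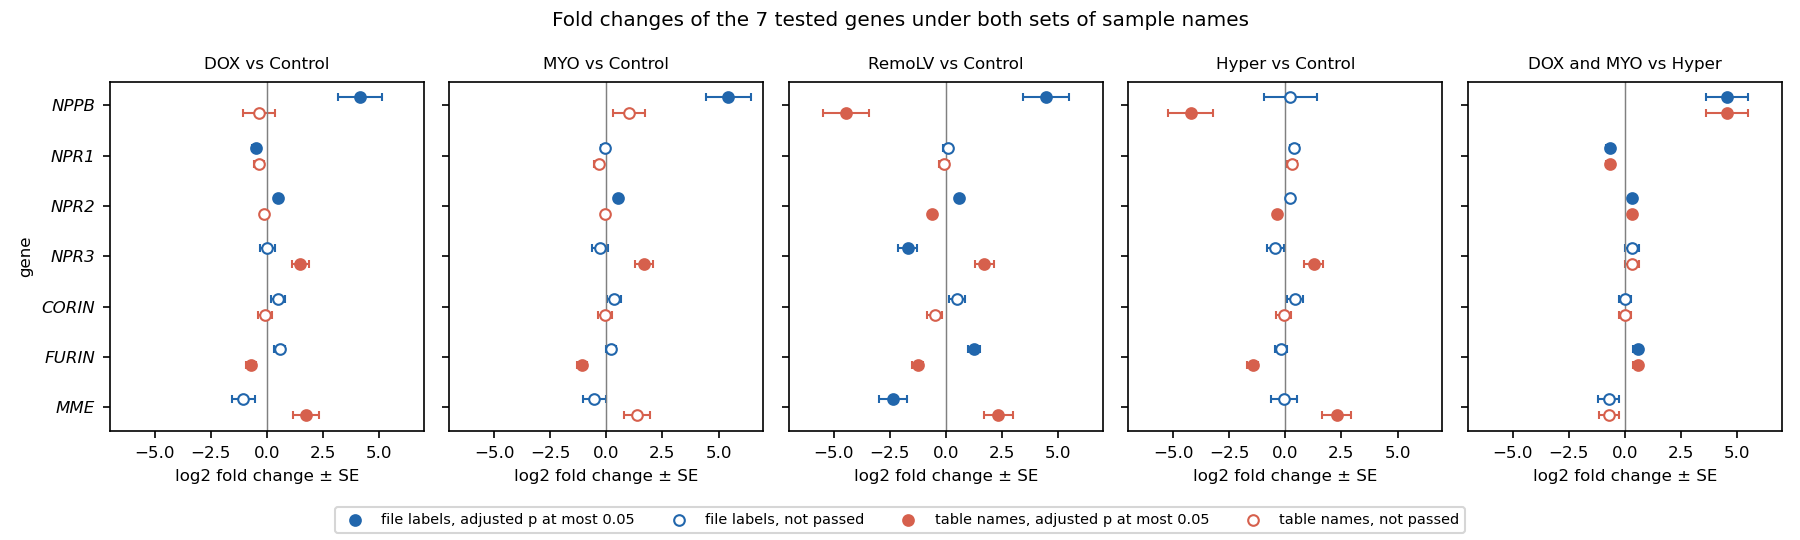
Log2 fold change with SE of the 7 tested members in 5 comparisons, by file labels and by table names, with filled points at an adjusted p of at most 0.05. In RemoLV against Control each value changes sign with the names, whereas in DOX and MYO against Hyper both sets give the same 4 filled points.

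The number of members called with the table names was 3 in DOX (29.6% of all genes), 2 in MYO (29.2%), 5 in RemoLV (47.2%), 5 in Hyper (35.8%) and 4 in DOX and MYO against Hyper (32.7%), and 0 in RemoLV against Hyper (0%). The comparisons of DOX, MYO, RemoLV and Hyper with Control share their 3 control libraries, so that their values are not independent. Both sets of names set the same libraries against each other in DOX and MYO pooled against Hyper, in the same direction, and in RemoLV against Control, with the direction turned.

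Levels can be compared between genes per kb of RefSeq exon sequence. By file labels, Control means were 14.4 ± 9.61 CPM per kb for CORIN, where replicate 2 stood far above the other 2 libraries, 12.4 ± 1.82 for FURIN and 10.5 ± 1.06 for NPR1, which did not differ beyond their spread, then NPR2 (7.95 ± 0.302), NPR3 (7.39 ± 2.72), MME (2.66 ± 1.22), NPPB (2.17 ± 1.99) and NPPC (0.165 ± 0.096) (SD, n = 3 each). In DOX the mean of NPPB was 37.1 ± 22.1 CPM per kb and that of CORIN 20.5 ± 4.8 (n = 5 each). In MYO they were 91.1 ± 118, set by MYO replicate 2, and 18.2 ± 2.35. In the libraries labelled RemoLV the mean of NPPB was 46.1 ± 21.4 and that of FURIN 29.8 ± 2.18, and by table names these are the Control values. In all 3 groups the gap lay within the SD of NPPB, so that the genes are not ranked.

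Further genes of the pathway were taken from lists. Among all genes tested, 15.8% were higher and 16.9% lower in DOX and MYO than in Hyper, and the shares for RemoLV against Control were 23.1% higher and 24% lower. The marker counts given above belong to the same comparisons, and their part in the list values was not tested. By table names the RemoLV values below change sign, and the calls of DOX and MYO against Hyper are the same genes. In the cGMP branch, 1 of 10 tested genes was higher and 4 were lower in DOX and MYO than in Hyper (median log2 fold change -0.26, against 0.03 over all genes tested). PRKG1, the cGMP-dependent kinase, fell by 0.78 (adjusted p = 0.00281), from 12.9 ± 1.14 CPM in Hyper to 7.98 ± 0.542 in DOX and 7.02 ± 1.22 in MYO. GUCY1A1 and GUCY1A2, subunits of the nitric oxide receptor that also makes cGMP, fell by 0.73 and 0.92 (adjusted p = 0.00578 and 0.0125). GUCY1A2 was low throughout, at 1.1 to 2.43 CPM in DOX, overlapping with 1.86 to 3.22 CPM in Hyper. It was at 0.844 to 1.18 CPM in RemoLV and 1.9 to 3.51 CPM in Control. In RemoLV against Control, 3 were higher and 2 lower (median 0.20), with PRKG1 at 0.62 (adjusted p = 0.0306), GUCY1A2 at -1.34 (adjusted p = 0.00444) and PDE3A, a phosphodiesterase inhibited by cGMP, at -1.33 (adjusted p = 0.00172).

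Among other convertases and peptidases, 2 of 6 tested genes were lower and 0 higher in DOX and MYO than in Hyper (median 0.05). They were DPP4, a dipeptidyl peptidase that trims BNP, with -1.12 (adjusted p = 8.42e-05), and IDE, the insulin-degrading enzyme that also cuts ANP, with -0.29 (adjusted p = 0.0335). DPP4 was at 69.7 to 133 CPM across DOX and MYO and at 152 to 242 CPM in Hyper. Both also fell in RemoLV against Control, by 1.07 and 0.52 (adjusted p = 0.000832 and 0.0023), where PCSK7, a relative of furin, rose by 0.54 (adjusted p = 0.0208) and ECE1, the endothelin-converting enzyme, gave -0.41 (adjusted p = 0.0513).

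Of the 12 transcription regulators of NPPA and NPPB, 5 were higher and 0 lower in DOX and MYO than in Hyper (median 0.42). GATA4, which binds GATA sites of both peptide genes, rose by 0.63 (adjusted p = 5.15e-05), with 142 to 179 CPM in the 10 libraries against 88.1 to 113 CPM in Hyper. NKX2-5, the cardiac homeobox factor, rose by 0.76 (adjusted p = 0.000539) and TBX2, a T-box repressor, by 0.62 (adjusted p = 0.0115), and HAND2 and SRF were the other 2. GATA4 was also higher than Control in DOX and MYO under both sets of names, with 0.59 and 0.57 by file labels and 0.56 and 0.61 by table names, all called. In RemoLV against Control 3 were higher and 1 lower, with TBX5, a factor abundant in atria, at 1.73 (adjusted p = 1.24e-05) and GATA4 at -0.01 (adjusted p = 0.962).

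In the secretory granule list, CHGA, CPE and PAM were higher in RemoLV than in Control, and in DOX and MYO against Hyper none of them was called (adjusted p = 0.758, 0.192 and 0.702). CHGA, chromogranin A of peptide granules, was at 61.6 ± 21.2 CPM in RemoLV (SD, n = 3) and at most 1.74 CPM in the other 16 libraries. CPE, carboxypeptidase E, rose by 2.77 (adjusted p = 2.03e-06) and PAM, the amidating enzyme of atrial granules, by 1.50 (adjusted p = 1.2e-05). The fourth tested gene, SCG5, was near the filter limit, at 0.508 to 0.844 CPM in RemoLV and at most 0.672 CPM elsewhere, and passed the filter mainly through RemoLV, so that its difference is not read as a result. The atrial marker sum given above moved with this list, and its part was not tested.

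The genes most like each member were taken as those with the highest Pearson correlation of log2 CPM over the 19 libraries among 9855 genes, as a description of points that share groups and libraries. For NPPB they were HDAC7 (0.929), MYO10 (0.925) and TPD52L2 (0.914), with 0.781, 0.729 and 0.569 within the 10 DOX and MYO libraries. For MME they included RAB5IF (0.871) and TSPAN17 (0.86), with 0.864 and 0.762 within the 10. CORIN was most like WDR76 (0.885 and, within the 10, 0.864), FURIN most like INPP4A (0.909 and 0.683), NPR1 most like ZFP69B (0.896 and 0.893) and NPR3 most like CTNNA1 (0.884 and 0.737). NPR2 was most like ARHGEF11 over 19 libraries (0.939) but not within the 10 (0.128).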

How the data were processed

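RNA of tissue described as LV was sequenced by the authors, aligned to Sscrofa11.1 with STAR and counted per Ensembl gene with HTSeq 0.11.1. The deposited counts are raw whole numbers, with 1 file per library. The deposited table also holds log2-like expression values, used here only to match its columns to the count files, and fold changes and adjusted p-values of the authors' own comparisons, which were not used. In R 4.3.3, counts were scaled by TMM, filtered by filterByExpr and tested in edgeR 4.0.16 (quasi-likelihood test, a single model with a term for each of the 5 groups), with Benjamini-Hochberg adjustment over all 13552 genes tested. CPM values use the TMM library sizes. Standard errors came from the fitted log2 fold change and its F statistic. Alternatives were other scalings and filters, DESeq2 1.42.0, only the groups compared, a replicate block, table names and leaving out each library, and, added after the data were seen, a fit without the libraries labelled RemoLV and table names without each library named Control. The members and lists were chosen with earlier results of these data known. Named genes were the 9 members, up to 4 genes per list with the lowest p in DOX and MYO against Hyper or in RemoLV against Control, and the 3 most correlated genes per member with a mean log2 CPM of at least 2. Not all of the correlated genes are reported here. Replicates are separate pigs. The code was tested on simulated data. Totals of 9527710 to 20370209 counts limit low genes such as NPPC. NPPA was not analysed here.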

Additional observations from a re-analysis of the deposited data

Results flagged for a closer look

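NPPB in MYO replicate 2, at 202 CPM, stood apart from the other 4 MYO libraries (14.4 to 37.8 CPM): on the CPM scale its gap to the next library was larger than Dixon's 95% critical value for 5 samples allows. The rule was not applied on a log scale. Of 16 groups of 5 examined over the 8 members this was the only such library. Chance gives about 1 in 20 groups, so that 1 among 16 is near what chance gives.

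The effects of RemoLV and Hyper against the same Control libraries differed in 5 members by file label, which is the comparison of RemoLV with Hyper. The log2 difference was 4.22 for NPPB, 1.45 for FURIN, 0.379 for NPR2, -1.26 for NPR3 and -2.28 for MME. The NPR2 call was lost without RemoLV replicate 3 (0.29, adjusted p = 0.0578) and when only the groups compared were fitted (0.38, adjusted p = 0.0653). The 3 libraries labelled RemoLV are also those with MYL4 at 6030 CPM or more, and by table names none of the 5 differences was called.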

How the results depend on the processing

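By table names, log2 fold changes with the opposite sign were, in DOX against Control, -0.36 for NPPB, -0.12 for NPR2, -0.0872 for CORIN, -0.69 for FURIN and 1.75 for MME. In MYO against Control they were -0.0519 for NPR2, 1.67 for NPR3, -0.066 for CORIN, -1.08 for FURIN and 1.37 for MME. In RemoLV against Control they were -4.45 for NPPB, -0.0892 for NPR1, -0.60 for NPR2, 1.71 for NPR3, -0.50 for CORIN, -1.26 for FURIN and 2.34 for MME. In Hyper against Control they were -4.22 for NPPB, -0.38 for NPR2, 1.26 for NPR3, -0.0749 for CORIN and 2.28 for MME, and 5 members were called. In DOX against MYO they were 0.00175 for NPR1, -0.18 for NPR3, -0.0211 for CORIN and 0.39 for MME. In RemoLV against Hyper they were -0.23 for NPPB, -0.22 for NPR2, 0.45 for NPR3, -0.43 for CORIN and 0.0583 for MME, and 0 members were called. The exchange of names itself makes these changes.

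Outside DOX against MYO, total counts without TMM put the median log2 fold change of all genes at 0.171 to 0.519, against 0.0135 to 0.0308 with TMM. They gave NPR1 0.36 and NPR3 0.18 in MYO against Control, MME 0.17 in Hyper against Control, NPR1 0.0255 in RemoLV against Hyper and CORIN 0.27 in DOX and MYO against Hyper. They lost NPR1 in DOX against Control (-0.0584) and in DOX and MYO against Hyper (-0.41) and NPR3 in RemoLV against Hyper (-0.92), and called FURIN in DOX (0.99) and MYO (0.64) and NPR1 in RemoLV (0.58) against Control. With at least 10 counts in every library NPPB was not tested, which left 1 member called in MYO against Control, and CORIN in DOX and MYO against Hyper was 0.000987. Replicate numbers did not pair the libraries (median correlation of deviations 0.00687 over 32 same-numbered pairs), and the replicate block gave CORIN 0.0753 in DOX and MYO against Hyper and NPPB 4.66, with the same number of members called in each comparison, but in DOX against Control it lost NPR1 (adjusted p = 0.106) and gained FURIN (adjusted p = 0.0489).

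Leaving out each library gave a range of -0.25 to 0.23 for NPR3 in DOX against Control, -0.21 to 0.016 for NPR1 in MYO against Control, -0.21 to 1.26 for NPPB and -0.40 to 0.22 for MME in Hyper against Control, and for CORIN -0.199 to 0.216 in RemoLV against Hyper and -0.203 to 0.112 in DOX and MYO against Hyper. Members called ranged from 0 to 1 in Hyper against Control (1 without Control replicate 2), 3 to 6 in RemoLV against Hyper (3 without RemoLV replicate 3) and 2 to 4 in DOX and MYO against Hyper (2 without Hyper replicate 1). The count of 6 includes NPPC, which passed the filter in some of these fits, so that 8 members were tested there. It passed mainly through the libraries labelled RemoLV, so that its call is not read as a result. The NPR3 to NPR1 ratio difference ranged from 0.742 to 1.17 and passed the exact permutation test without MYO replicate 1, MYO replicate 5 or Hyper replicate 2 (1.11, 1.04 and 1.17). By table names, in a setting chosen after seeing the data, leaving out each library named Control gave -0.604 to 0.0853 for NPPB and -0.228 to 0.187 for CORIN in DOX, -0.121 to 0.0373 for NPR2 and -0.207 to 0.208 for CORIN in MYO, and -0.216 to 0.199 for CORIN in Hyper, with 1 to 3 members called in DOX and 3 to 6 in Hyper (1 and 3 without Control replicate 3). The upper counts of 3 and 6 include NPPC in the same way. Other causes were not tested. No NPPA to NPPB ratio could be computed, and low depth limits NPPC.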
